A study of Mus musculus with 12 samples.

Results

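The comparison described here is between the 4 libraries whose treatment label is CpG-STAT3dODN and the 4 whose treatment label is CpG-scrODN, 8 of the 12 libraries in the series. The sample titles follow these labels, but the value columns inside the files carry other names. The libraries labelled CpG-STAT3dODN are headed SCR, those labelled CpG-scrODN are headed PBS, and those labelled PBS are headed DEC. Each group is therefore called here by its label and its column header together: CpG-STAT3dODN/SCR, CpG-scrODN/PBS and PBS/DEC. By the labels, the comparison sets a STAT3 decoy against a scrambled control. By the headers, it sets the scrambled control against buffer. Which of these it is could not be settled, so no difference below is assigned to a drug. Differences are always CpG-STAT3dODN/SCR minus CpG-scrODN/PBS.

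All groups share the same leukemia and host. CMM cells, a GFP-marked mouse acute myeloid leukemia line used as a model of inv(16) disease, were given intravenously to C57BL/6 mice. Dosing began once GFP-positive cells made up about 1% of the blood cells. Mice then received buffer (PBS), CpG-scrODN or CpG-STAT3dODN by vein 3 times on alternate days, and the spleen was taken 1 day after the last dose. c-Kit-positive cells were enriched with antibody-coated beads before RNA extraction, and the design text also names a GFP sort. Numbers from 1 to 4 name the libraries, and no source ties a library to its own mouse. The p-values therefore reflect how far these samples scatter, and part of that scatter may be technical. The sources give no age, sex or number of mice, and all cells derive from 1 leukemia line.

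CpG-STAT3dODN joins a CpG-containing oligonucleotide to a decoy. The CpG part is taken up by cells and engages TLR9, the endosomal receptor for unmethylated CpG DNA, which signals through MyD88 to NF-kB and interferon regulatory factors. The decoy part carries a binding site for STAT3, a transcription factor active in many leukemias, and is meant to hold it away from its target genes. CpG-scrODN keeps the CpG part beside a scrambled sequence. In inv(16) leukemia a fusion of CBFB with MYH11 interferes with RUNX1 and holds myeloid cells at an immature stage. The study asked how joint STAT3 inhibition and TLR9 stimulation lead leukemic cells to differentiate, with IRF8, a factor that directs monocyte and dendritic fates, in its title.

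Of 24310 genes named in the files, 10569 reached 1 RPKM in at least 4 of the 8 libraries and were tested, and a gene can pass this filter on 1 group alone. RPKM is the read count of a gene scaled to its length and to the mapped reads of the library. A difference is the difference of group means of log2(RPKM + 1), which understates the change of low genes. A gene counted as called when its limma p, adjusted by Benjamini and Hochberg's method over all 10569 genes, was under 0.05. With all 8 libraries 1 gene was called, 0.00946% of those tested, and it is a histone gene. Every other gene had an adjusted p of 0.916 or more in limma. At an unadjusted p under 0.05 there were 463 genes (4.38%), of which 378 (3.58%) were higher in CpG-STAT3dODN/SCR and 85 (0.804%) were lower. The share that was higher, 81.6%, was 60.8% after quantile normalization and 63.3% after size factor scaling. The groups did not overlap for 443 genes (4.19%), 348 of them higher (3.29%) and 95 lower (0.899%). For 94.1% of genes the 95% interval of the difference lay within 1 log2 unit of 0.

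Promoter sequences are shown for 3 genes that the results turn on, each with a match to the motif marked. They are Hist1h2an, the called gene, Tnfaip3, the lowest of the NF-kB feedback genes, and Socs3, a textbook STAT3 target whose level was near equal in both groups. Each is the 250 bases before the RefSeq start on GRCm38.p6, written 5′ to 3′ on the strand of the gene. Capitals mark CCAAT in Hist1h2an (chr13:21787249-21787498, minus strand), an NF-kB-type motif (GGG, any 2 bases, then TTTCC) in Tnfaip3 (chr10:19015411-19015660, minus strand) and TTCNNNGAA in Socs3 (chr11:117969367-117969616, minus strand), each read on both strands.
Hist1h2an: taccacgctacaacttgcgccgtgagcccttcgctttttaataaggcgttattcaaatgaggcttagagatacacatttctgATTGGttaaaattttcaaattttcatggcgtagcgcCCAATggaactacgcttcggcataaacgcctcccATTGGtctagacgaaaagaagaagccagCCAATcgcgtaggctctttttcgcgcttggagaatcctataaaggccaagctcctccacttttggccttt
Tnfaip3: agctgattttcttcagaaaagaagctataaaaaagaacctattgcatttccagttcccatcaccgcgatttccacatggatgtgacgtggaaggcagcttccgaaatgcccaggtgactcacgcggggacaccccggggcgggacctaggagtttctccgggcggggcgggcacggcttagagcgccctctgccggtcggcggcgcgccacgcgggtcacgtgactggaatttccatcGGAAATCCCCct
Socs3: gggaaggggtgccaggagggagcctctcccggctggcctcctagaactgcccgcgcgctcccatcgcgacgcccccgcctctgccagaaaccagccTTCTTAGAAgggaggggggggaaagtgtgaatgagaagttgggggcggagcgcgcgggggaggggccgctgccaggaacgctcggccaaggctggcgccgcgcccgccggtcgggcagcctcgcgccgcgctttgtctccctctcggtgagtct

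CCAAT, the box bound by NF-Y and common in histone promoters, began 168, 132, 98 and 70 bases before the Hist1h2an start. It occurred in 36 of 41 promoters of the tested histone genes (87.8%) and in 33.8% of all 32851 RefSeq promoters in windows of the same length. The NF-kB-type motif began 12 bases before the Tnfaip3 start shown. It was present in 7 of 25 promoters of the NF-kB response genes (28%) and in 1.41% of all promoters. TTCNNNGAA, the STAT-type motif, began 154 bases before the Socs3 start. It was found in 5 of 33 promoters of the STAT3 target genes (15.2%), in 5 of 25 of the NF-kB response genes (20%) and in 7.02% of all promoters. Other promoters were searched and are not shown: the windows of Nr4a1, Atf3, Fos, Fosb and Dusp1 held none of these motifs, and that of Junb held CCAAT only. Matches of different motifs may overlap. A match describes letters in a window and not bound sites.

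The 8 libraries held an estimated 31830000 to 36270000 mapped reads, as the steps between low RPKM values give, so that 1 RPKM stood for about 31.8 reads per kilobase. The search covered a limited range of depths, and multiples of these depths outside it were not tried. The libraries of both groups were close to each other. Pearson correlations over genes ran from 0.983 to 0.997 within CpG-scrODN/PBS and from 0.979 to 0.993 among replicates 1 to 3 of CpG-STAT3dODN/SCR. Between the groups the median correlation was 0.986, and CpG-STAT3dODN/SCR replicate 1 was nearer to CpG-scrODN/PBS replicate 2 (0.996) than to any library of its own group. CpG-STAT3dODN/SCR replicate 4 stood apart, at 0.926 to 0.945 with its own group. In it 416 genes lay over 1 log2 unit above and 415 over 1 below the other libraries of its group, against 2 to 62 in either direction for each of the other libraries. Kit, which the enrichment selects, ranged from 25.7 to 51.1 RPKM over the 8 libraries, and Cd34 from 8.70 to 43.1. In CpG-STAT3dODN/SCR replicate 4, Cd34 lay 1.31 log2 units below the median of the other libraries of its group (deviation -1.31). Myh11, the gene of the fusion partner, stayed under the filter, as did Flt3. The level of Myh11 was not taken as a measure of the fusion transcript.

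**Figure D1:**
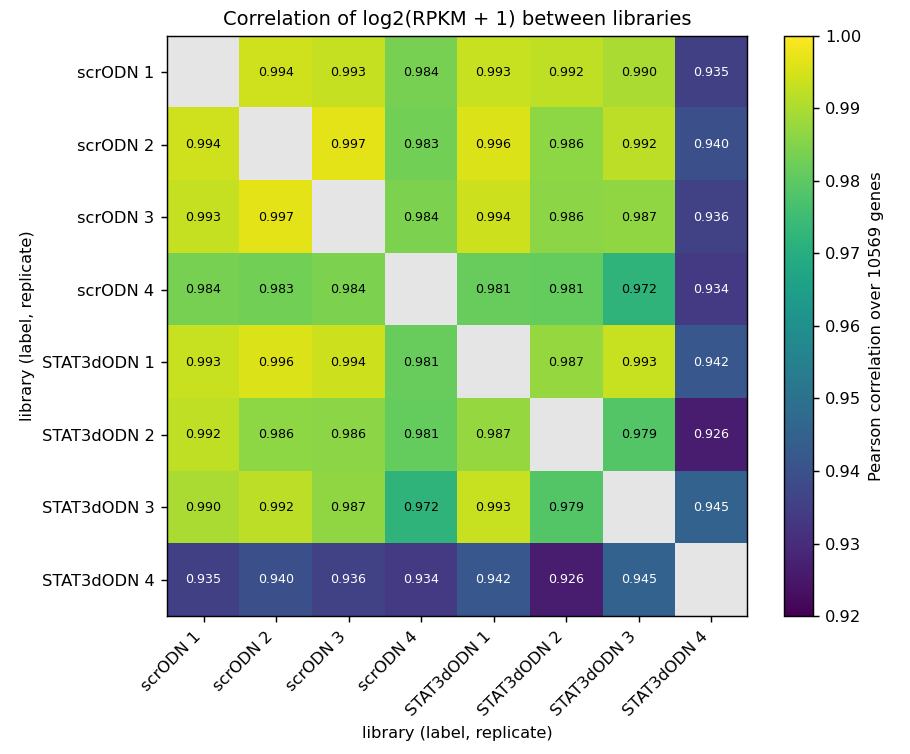
Pairwise Pearson correlation of log2(RPKM + 1) over the 10569 tested genes for the 4 CpG-STAT3dODN/SCR and 4 CpG-scrODN/PBS libraries, both axes listing libraries and color giving the correlation. CpG-STAT3dODN/SCR replicate 4 correlates with its group at 0.926 to 0.945, and the other libraries do not separate into their groups.

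Several genes of known function marked this distant library. Sqstm1, the autophagy receptor p62, measured 767 RPKM there, 61.2 to 86.2 in replicates 1 to 3 of its group and 64.9 to 95.6 in CpG-scrODN/PBS. Csf2rb2, a beta chain of the IL-3 receptor, measured 642 RPKM against 50.3 to 60.0 in the rest of its group, and 127 in CpG-scrODN/PBS replicate 4. Spint1, a protease inhibitor, measured 39.5 RPKM against 0.931 to 2.38, and Trib3, a stress-induced pseudokinase, 62.9 against 2.10 to 7.03. Relb, a subunit of alternative NF-kB, measured 64.9 RPKM against 5.65 to 6.55. Replicate 4 of PBS/DEC, which is in neither group compared, measured 733 RPKM for Sqstm1, 504 for Csf2rb2, 69.8 for Relb, 38.1 for Spint1 and 50.5 for Trib3. Hspa1b, an inducible HSP70 gene, was low in replicate 4 of every group, at 13.2 RPKM in CpG-STAT3dODN/SCR, 8.28 in CpG-scrODN/PBS and 10.4 in PBS/DEC. In the other 6 libraries compared it ran from 242 to 1341 RPKM. Results are therefore given with all 8 libraries and again without both replicate 4 libraries. Without them no gene was called (0%), 551 genes had an unadjusted p under 0.05 (5.21%), of which 443 were higher (4.19%) and 108 lower (1.02%). The groups did not overlap for 1167 genes (11.0%), 892 higher (8.44%) and 275 lower (2.60%). In both sets 283 genes passed the unadjusted p on the same side, 59 of them lower.

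Replication-dependent histone genes are copied in S phase from clusters, and their mRNAs end in a stem-loop in place of a poly(A) tail. Hist1h2an encodes a core histone H2A that packs DNA in the nucleosome. RefSeq lists it as H2ac22, on chromosome 13 from 21786774 to 21787248 on GRCm38. It measured 1.57, 1.21, 1.76 and 1.97 RPKM in CpG-STAT3dODN/SCR replicates 1 to 4 and 8.04, 7.87, 5.29 and 6.82 RPKM in CpG-scrODN/PBS replicates 1 to 4. All 4 libraries of the first group lay below all 4 of the second, with means of 1.63 ± 0.323 and 7.0 ± 1.26 RPKM (SD, n = 4 each). It fell by 1.60 on the log2 scale (SE 0.14, 95% interval -1.92 to -1.28, limma adjusted p = 0.0179). For a transcript of 393 bases, the length of the coding sequence, these values come to about 17.2 to 27.0 reads against 74.4 to 109.2. The RefSeq span is longer, so these read numbers are rough. Over 21 alternatives the limma adjusted p ran from 0.00138 to 0.965 and 11 of them called the gene, while the difference stayed between -2.04 and -1.52. Without both replicate 4 libraries the difference was -1.67 and the limma adjusted p was 0.0766.

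H2A genes are near-identical copies. Against the coding sequence of Hist1h2an, 14 other H2A coding sequences of the same length were 84.2% to 99% identical, 10 of them over 95%. Hist1h2ad and Hist1h2ag were the nearest, at 99%. Counting could split such reads, so the level of this 1 copy is uncertain. Hist1h2ag measured 4.29 to 9.19 RPKM in CpG-STAT3dODN/SCR and 8.25 to 10.4 in CpG-scrODN/PBS, so its groups overlapped. Hist1h2ai measured 6.02, 5.79, 6.43 and 6.29 RPKM against 7.95, 9.69, 9.31 and 11.7. Its groups did not overlap (difference -0.57, 95% interval -0.81 to -0.33), and it was not called. In the PBS/DEC libraries Hist1h2an itself varied between 0.420 and 5.46 RPKM.

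Other histone genes were looked at after these values had been seen. Of 68 histone genes of the Hist clusters 44 were tested, 39 had a difference below 0, 22 had an unadjusted p under 0.05 with a lower level (0.804% over all tested genes), and none with a higher one. The groups did not overlap for 16, all lower (0.899% over all tested genes). Their median difference was -0.50, against 0.03 over all genes. Without both replicate 4 libraries it was -0.35, with 21 lower at the unadjusted p (1.02% over all tested genes). The linker histones H1 had the lowest median (-0.74, 5 genes, 4 at the unadjusted p), followed by H2A (-0.57, 10 of 13), H2B (-0.43, 4 of 10), H3 (-0.31, 3 of 8) and H4 (-0.13, 1 of 8). Counting could also split reads among the copies of the other classes. The cell cycle and DNA replication genes, 53 tested, had a median difference of -0.02, none passed the unadjusted p, and every interval lay within 1 log2 unit of 0.

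The linker histone Hist1h1d measured 2.75, 3.47, 2.65 and 1.49 RPKM in CpG-STAT3dODN/SCR and 6.24, 6.4, 6.18 and 16.4 in CpG-scrODN/PBS. Hist1h1e, another linker histone, measured 2.84, 3.39, 2.83 and 0.908 RPKM against 5.94, 6.32, 6.13 and 11.4. For both genes the groups did not overlap, replicate 4 was the lowest of its group in one and the highest in the other, and the gene was not called. The core histone Hist1h2bg measured 37.9, 31.3, 30.7 and 3.76 RPKM against 49.6, 41.4, 42.7 and 73.2, so the distance between its groups came mostly from replicate 4 (difference -1.30, then -0.41). Without both replicate 4 libraries Hist1h1e (difference -0.83), Hist1h2an, Hist1h1d (-0.88) and Nr4a1 (-1.02) shared the lowest limma adjusted p of 0.0766, and the next gene, Plk3, stood at 0.204.

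**Figure D2:**
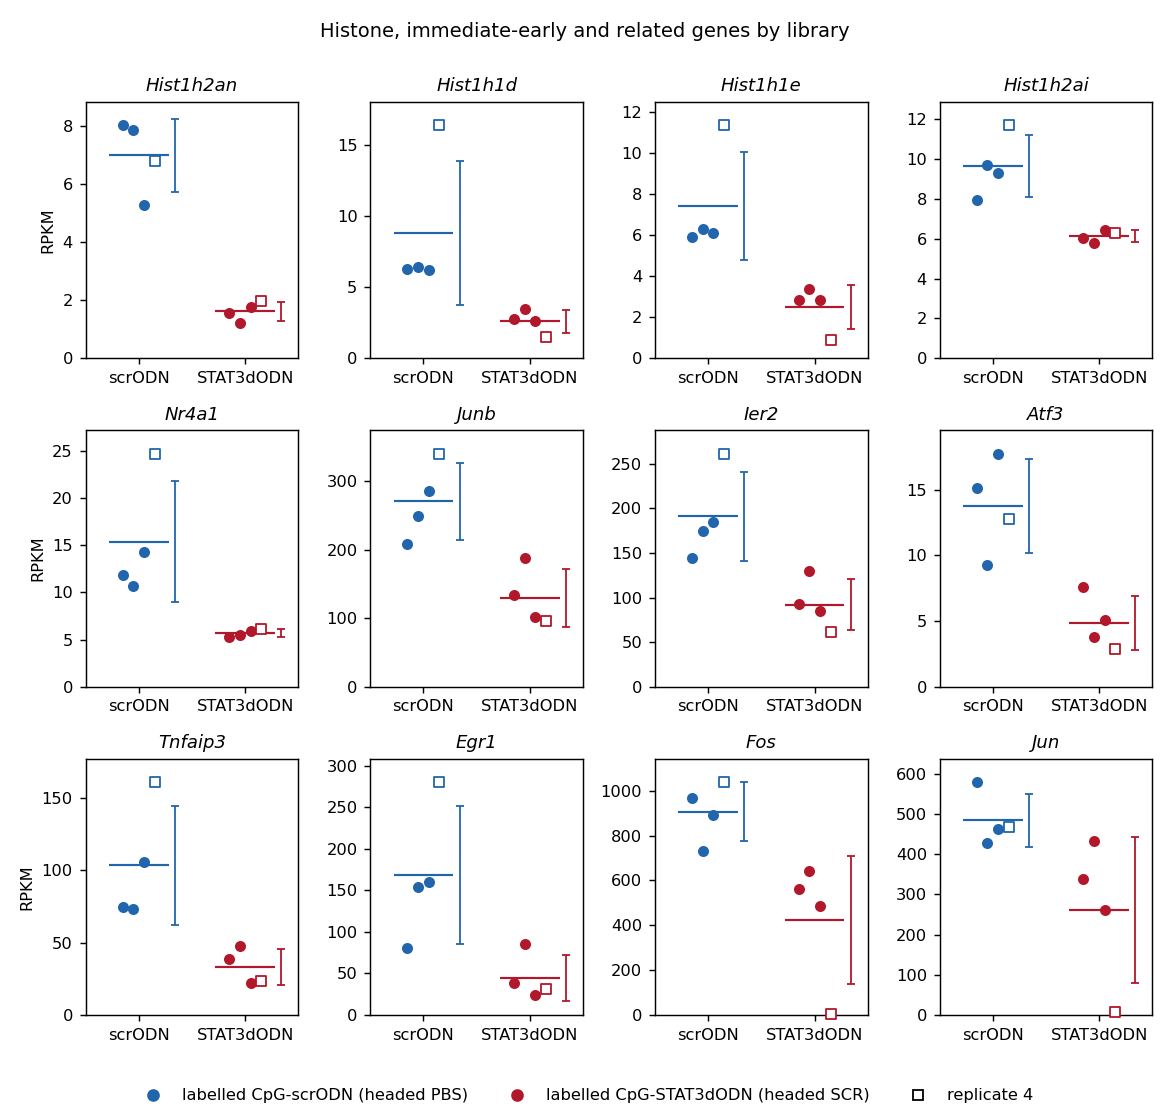
Levels in RPKM of 4 histone genes and 8 immediate-early or NF-kB genes in each library, by group; filled circles are replicates 1 to 3, open squares replicate 4, lines means and bars SD. Hist1h2an lies between 1.21 and 1.97 RPKM in CpG-STAT3dODN/SCR and between 5.29 and 8.04 in CpG-scrODN/PBS, and the open square of Fos in CpG-STAT3dODN/SCR sits at 5.91 RPKM.

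Immediate-early genes are transcribed within minutes of a stimulus, many encode AP-1 or EGR transcription factors, and their mRNAs are short-lived. None was called. Of 38 listed genes 32 were tested, 18 had an unadjusted p under 0.05 with a lower level in CpG-STAT3dODN/SCR, against 0.804% over all tested genes, and none had a higher one. The groups did not overlap for 13, all lower (0.899% over all tested genes), and 28 differences were below 0, with a median of -0.73. Without both replicate 4 libraries 22 genes passed the unadjusted p, all lower (1.02% over all tested genes), with a median of -0.49. The mean log2(RPKM + 1) over the tested list was 4.45, 4.55, 4.22 and 3.48 in CpG-STAT3dODN/SCR replicates 1 to 4 and 4.92, 4.81, 5.04 and 5.32 in CpG-scrODN/PBS.

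Nr4a1, an orphan nuclear receptor induced by receptor signaling, measured 5.24, 5.45, 5.92 and 6.17 RPKM in CpG-STAT3dODN/SCR and 11.8, 10.7, 14.3 and 24.7 in CpG-scrODN/PBS. Every value of the first group was below every value of the second (difference -1.22, 95% interval -1.73 to -0.72), and replicates 1 to 3 alone gave -1.02. Atf3, a stress-induced repressor, measured 7.58, 3.76, 5.10 and 2.84 RPKM against 15.1, 9.29, 17.7 and 12.8. Its groups also did not overlap (difference -1.37, and -1.21 without both replicate 4 libraries).

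Among the AP-1 subunits, Junb measured 133, 187, 101 and 95.3 RPKM in CpG-STAT3dODN/SCR and 208, 249, 286 and 340 in CpG-scrODN/PBS. Jund measured 109, 103, 65.2 and 33.1 RPKM against 164, 160, 152 and 164. Both sets of groups were apart, with differences of -1.09 and -1.18, or -0.85 and -0.81 without both replicate 4 libraries. Fos measured 560, 643, 486 and 5.91 RPKM against 966, 731, 890 and 1038. Its groups did not overlap, but 1 library set the size: the difference was -2.27 (95% interval -5.28 to 0.74) with all 8 and -0.61 without both replicate 4 libraries. Jun measured 339, 434, 262 and 8.68 RPKM against 580, 429, 462 and 468, overlapping in replicate 2 of each group (difference -1.79, then -0.52).

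Egr1, a zinc-finger factor that also directs macrophage fate, measured 38.5, 84.8, 23.9 and 31.7 RPKM in CpG-STAT3dODN/SCR and 80.4, 154, 159 and 280 in CpG-scrODN/PBS. The highest value of the first group was above the lowest of the second (difference -1.92, then -1.53 without both replicate 4 libraries). Ier2 measured 92.5, 130, 84.4 and 61.3 RPKM against 144, 174, 184 and 261, without overlap (difference -1.06, then -0.72). Zfp36, which encodes the mRNA-destabilizing protein tristetraprolin, measured 98.1, 141, 85.1 and 17.0 RPKM against 184, 182, 221 and 384. Dusp1, a phosphatase that switches off MAP kinases, measured 66.2, 72.6, 54.6 and 5.96 RPKM against 110, 83.7, 117 and 148. The differences of these last genes were -1.76 and -1.61 with all 8 libraries and -0.88 and -0.67 without both replicate 4 libraries. Fosb followed Fos, at 200, 225, 156 and 0.924 RPKM against 299, 226, 287 and 289, with a difference that went from -2.17 to -0.49 without both replicate 4 libraries. Klf2, a zinc-finger factor that keeps lymphocytes and monocytes quiescent, measured 18.2, 17.5, 16.9 and 3.90 RPKM against 46.0, 20.6, 31.9 and 35.1 (difference -1.32, then -0.80). Mafk (0.10), Klf4 (0.05), Fosl2 (0.23) and Nfil3 (0.23) were the 4 genes of the list with differences above 0. The PBS/DEC libraries, which play no part in these tests, averaged 15.9 RPKM for Nr4a1, 162 for Junb and 107 for Ier2. The means of CpG-STAT3dODN/SCR and CpG-scrODN/PBS were 5.70 and 15.4 RPKM for Nr4a1, 129 and 271 for Junb and 92 and 191 for Ier2.

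STAT3 targets bear on the reading of the comparison as decoy against control. Stat3 itself measured 45.9, 50.3, 43.3 and 34.3 RPKM in CpG-STAT3dODN/SCR and 45.2, 45, 43.0 and 46.8 in CpG-scrODN/PBS (difference -0.06, 95% interval -0.32 to 0.20). A decoy acts on the protein, so the Stat3 transcript does not check the labels. Socs3, the feedback inhibitor of the pathway, measured 5.11, 2.56, 4.34 and 4.18 RPKM against 4.75, 4.47, 3.76 and 3.75 (difference -0.06, 95% interval -0.43 to 0.31). The groups overlapped for both genes.

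Of 32 listed STAT3 targets 27 were tested and none was called. At the unadjusted p, 3 were higher (Myc, Bcl3, Cebpd) and 2 lower (Junb and Zfp36, which are immediate-early genes as well), and the median difference was 0.03. Over all tested genes these shares were 3.58% and 0.804%. Without both replicate 4 libraries the counts were 4 and 3, against 4.19% and 1.02% over all tested genes. Myc, a driver of growth and proliferation, measured 89.2, 73.7, 74.2 and 69.5 RPKM in CpG-STAT3dODN/SCR and 63.1, 58.6, 61.2 and 48.7 in CpG-scrODN/PBS. Its groups did not overlap (difference 0.40, 95% interval 0.15 to 0.65, and 0.36 without both replicate 4 libraries). Bcl3, an atypical IkB protein, measured 4.45, 3.96, 3.40 and 11.5 RPKM against 3.31, 2.84, 2.35 and 1.96 (difference 0.80, then 0.37). Cebpd, a granulocytic transcription factor, measured 1.58, 1.68, 2.21 and 1.42 RPKM against 1.31, 1.28, 0.914 and 0.767 (difference 0.40). The survival genes Mcl1 and Bcl2l1 had differences of 0.01 and 0.25, the kinase Pim1 of -0.12, and the feedback inhibitors Socs1 and Cish of 0.44 and 0.45, all with overlapping groups. Cish was highest in the distant library, at 66.1 RPKM, and its difference was 0.12 without both replicate 4 libraries.

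Tlr9 stayed under the filter and was not tested, at 0.642, 0.372, 0.505 and 0.774 RPKM in CpG-STAT3dODN/SCR and 0.306, 0.405, 0.312 and 0.166 in CpG-scrODN/PBS. The 25 tested genes of the pathway had a median difference of 0.04, each interval lay within 1 log2 unit of 0, and 2 genes passed the unadjusted p, both higher (3.58% over all tested genes). Those were Unc93b1, the chaperone that carries TLR9 to endosomes, and Irak3, an inhibitor of the pathway. Unc93b1 measured 15, 9.78, 15.2 and 12.8 RPKM against 11.3, 8.95, 7.78 and 9.05 (difference 0.46), with overlapping groups. Irak3 measured 3.40, 3.34, 3.44 and 4.16 RPKM against 2.61, 2.42, 2.51 and 3.25 (difference 0.31), with groups apart. The adaptor Myd88 had a difference of -0.09 (95% interval -0.39 to 0.22), with 33.4 RPKM in the distant library and 45.7 to 50.6 in the other 7.

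Of the NF-kB response genes 25 were tested, none was higher at the unadjusted p and 4 were lower, all of them early-response genes or feedback inhibitors: Tnfaip3, Nfkbia, Nfkbiz and Tnf. The share of lower genes over all tested was 0.804%. Without both replicate 4 libraries 1 gene of the list was higher and 6 were lower (4.19% and 1.02% over all tested genes). Tnfaip3, which encodes the deubiquitinase A20 that shuts the pathway down, measured 38.9, 47.8, 22.1 and 23.4 RPKM in CpG-STAT3dODN/SCR and 74.4, 73.4, 106 and 161 in CpG-scrODN/PBS. Its groups were apart, with a difference of -1.62 (95% interval -2.34 to -0.90), or -1.25 without both replicate 4 libraries. Nfkbia, the inhibitor IkB-alpha, measured 43.5, 52.6, 28.6 and 44.3 RPKM against 53, 66.3, 83.8 and 104 (difference -0.83), without overlap. The list as a whole had a median of 0.20 with all 8 libraries and -0.01 without both replicate 4 libraries. Relb and Nfkb2 belong to the members that moved with the distant library. Nfkb2, the p100 precursor, measured 17.6, 18.4, 16.1 and 90.0 RPKM against 15.5, 17.3, 18.1 and 13.8, and its difference went from 0.68 to 0.03 without both replicate 4 libraries.

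Interferon genes were split by type. None of 24 tested type I interferon genes passed the unadjusted p in either direction (median 0.06). Isg15, a ubiquitin-like modifier, measured 9.67, 5.20, 33.3 and 29.7 RPKM against 13.3, 14.8, 8.75 and 4.54, with overlapping groups (difference 0.63, then 0.02). Of 21 interferon gamma response genes 6 did, all higher (3.58% over all tested genes), 5 genes had groups apart, all higher (3.29%), and the median was 0.18. Without both replicate 4 libraries the counts were 7 higher and 1 lower at the unadjusted p (4.19% and 1.02% over all tested genes). Whether the types differ from each other was not tested. Irgm2, an immunity-related GTPase, measured 2.19, 2.33, 2.47 and 2.04 RPKM in CpG-STAT3dODN/SCR and 1.46, 1.75, 1.25 and 1.43 in CpG-scrODN/PBS (difference 0.40, 95% interval 0.19 to 0.61). Its relatives Igtp (0.31) and Irgm1 (0.37) and the guanylate-binding protein gene Gbp5 (0.46) also had groups apart. Of cytokine receptors, Janus kinases and STATs 36 were tested, 3 were higher at the unadjusted p (3.58% over all tested genes) and none lower, with a median of 0.11. Without both replicate 4 libraries 6 of them were higher (4.19% over all tested genes) and none lower, with a median of 0.09.

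Irf8, named in the title of the study, measured 5.93, 3.28, 5.43 and 6.09 RPKM in CpG-STAT3dODN/SCR and 3.47, 4.41, 3.15 and 2.33 in CpG-scrODN/PBS. The groups overlapped, because replicate 2 was low in the first and high in the second. The difference was 0.50 (95% interval 0.06 to 0.95, limma adjusted p = 0.916), and 0.31 without both replicate 4 libraries. The PBS/DEC libraries averaged 25.3 ± 11.7 RPKM (SD, n = 4), above both groups. Spi1, which encodes the myeloid master regulator PU.1, measured 63.1, 62.0, 61.3 and 95.4 RPKM against 59.7, 59.1, 53.7 and 57.1. Its groups were apart with a difference of 0.27 (95% interval -0.06 to 0.59), which was 0.11 without both replicate 4 libraries. Of the genes tied to the leukemia fusion, Runx1 had a difference of 0.11 (95% interval -0.07 to 0.29) and Cbfb of 0.05 (95% interval -0.13 to 0.22). The other factors of the study overlapped too, Cebpa at a difference of 0.07, Gata2 at 0.12 and the integrin Itgam at 0.52, or 0.17, 0.33 and 0.57 without both replicate 4 libraries. Tlr9, Irf4, Myh11, Flt3, Cd80 and Cd86 stayed under the filter. The DNA modifiers Dnmt1 (-0.09), Dnmt3a (0.10) and Tet2 (-0.12) also had overlapping groups. The 39 tested chromatin modifiers had a median of 0.01, and every interval lay within 1 log2 unit of 0.

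**Figure D3:**
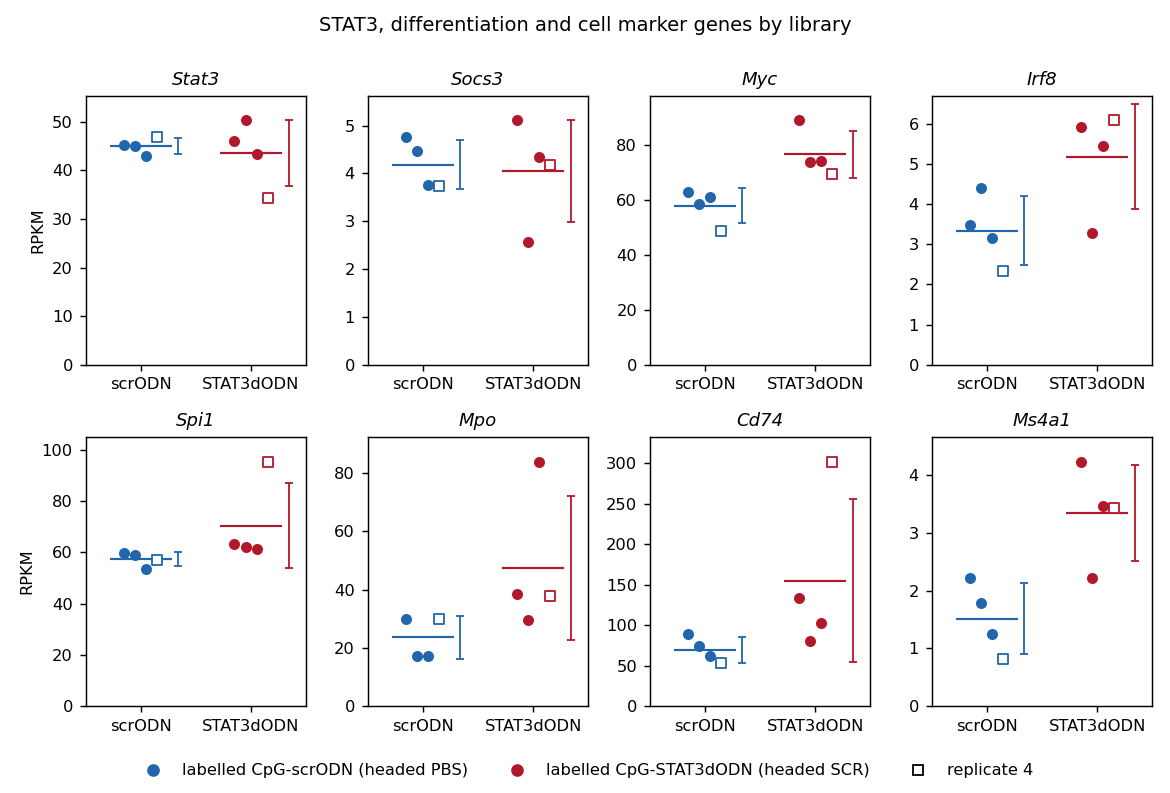
Levels in RPKM of 8 genes tied to the aim of the study or to cell type in each library, by group; filled circles are replicates 1 to 3, open squares replicate 4, lines means and bars SD. Myc, Ms4a1 and Spi1 have groups apart, Stat3, Socs3, Irf8, Mpo and Cd74 overlap, and the open squares carry the highest Spi1 (95.4 RPKM) and Cd74 (302 RPKM).

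Granule genes mark stages of myeloid maturation: primary granule proteins in promyelocytes, secondary granule proteins later. Of 20 tested primary granule genes 5 were higher at the unadjusted p (3.58% over all tested genes), none was lower, no groups were apart, and the median was 0.38 (0.56 without both replicate 4 libraries). Mpo, myeloperoxidase, measured 38.4, 29.6, 84.0 and 37.9 RPKM in CpG-STAT3dODN/SCR and 30.0, 17.2, 17.4 and 30.0 in CpG-scrODN/PBS (difference 0.91, 95% interval 0.16 to 1.65). Elane, neutrophil elastase, measured 37.7, 25.9, 83.9 and 44.3 RPKM against 27.9, 19.8, 17.8 and 23 (difference 0.97). For both genes replicate 3 of CpG-STAT3dODN/SCR was the highest of all 8 libraries.

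Of 30 tested genes of secondary granules and mature neutrophils 29 had a difference above 0, 8 were higher at the unadjusted p (3.58% over all tested genes), none was lower, and 3 had groups apart, all higher (3.29%). The median was 0.63, and 0.60 without both replicate 4 libraries, where 4 passed, all higher (4.19% over all tested genes). Ngp, a secondary granule protein, measured 255, 298, 492 and 268 RPKM against 262, 207, 119 and 38.4 (difference 1.32). Ncf1, a subunit of the NADPH oxidase, measured 15, 15.3, 27.3 and 18.6 RPKM against 14.2, 11.7, 7.11 and 6.62, without overlap (difference 0.90, 95% interval 0.29 to 1.5). Camp, the cathelicidin precursor, measured 131, 151, 246 and 151 RPKM against 144, 119, 66.7 and 17.7, with overlap (difference 1.27, then 0.69). Cebpe, the factor that drives secondary granule genes, measured 3.50, 4.06, 7.99 and 4.30 RPKM against 2.95, 2.66, 1.77 and 0.862, also without overlap (difference 0.97, 95% interval 0.32 to 1.61). S100a9, an alarmin of mature neutrophils, measured 819, 882, 1650 and 792 RPKM against 866, 737, 348 and 213. Replicates 1 and 2 of both groups were close, while replicate 3 was high in the first group and replicates 3 and 4 were low in the second.

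Erythroid markers were also highest in that library. The mean log2(RPKM + 1) of the 23 tested erythroid genes was 5.19, 4.48, 6.51 and 5.95 in CpG-STAT3dODN/SCR and 5.60, 5.56, 5.31 and 4.80 in CpG-scrODN/PBS. That of the mature neutrophil list was 4.53, 4.53, 5.19 and 4.08 against 4.51, 4.34, 3.62 and 3.25. CpG-STAT3dODN/SCR replicate 3 was the highest and CpG-scrODN/PBS replicate 4 the lowest or next to lowest in both. In bulk samples a smaller number of cells of a type and less RNA per cell cannot be told apart, and the part of other cells in the neutrophil differences was not tested. Of 29 tested monocyte and macrophage genes 1 was higher at the unadjusted p (Ly6c2, difference 0.74), against 3.58% over all tested genes. The list median was 0.10. Without both replicate 4 libraries 4 of these genes passed, all higher (4.19% over all tested genes), and the median was 0.23. Stem and progenitor genes, 23 tested, had a median of 0.00. At the unadjusted p 3 were higher and 1 lower, Txnip (3.58% and 0.804% over all tested genes). Kit had a difference of 0.10 (95% interval -0.39 to 0.59).

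MHC class II molecules present antigen on dendritic cells, macrophages and B cells. Of 14 tested genes of presentation and costimulation 7 were higher at the unadjusted p (3.58% over all tested genes) and none lower, with a median of 0.46, but no groups were apart. Without both replicate 4 libraries 4 passed, all higher (4.19% over all tested genes), and the median was 0.34. Cd74, the invariant chain, measured 134, 81.2, 103 and 302 RPKM in CpG-STAT3dODN/SCR and 88.7, 74.2, 62.0 and 52.8 in CpG-scrODN/PBS (difference 0.98, then 0.48 without both replicate 4 libraries). H2-Aa, the alpha chain of I-A, measured 61.1, 36.2, 50.03 and 158 RPKM against 41.3, 38.6, 28.7 and 27.7 (difference 0.93, then 0.42). Ciita, the class II transactivator, measured 2.11, 1.11, 1.55 and 1.25 RPKM against 1.17, 1.13, 0.728 and 0.558 (difference 0.40).

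B-cell markers were higher at the unadjusted p as well. Of 27 markers 24 had a row in the files and 13 passed the filter. Of the 13, 11 were higher at the unadjusted p and 4 had groups apart, all higher, against 3.58% and 3.29% over all tested genes. Their summed level ran from 58.1 to 163 RPKM in CpG-STAT3dODN/SCR and from 30.6 to 56.4 in CpG-scrODN/PBS. Ms4a1, the B-cell antigen CD20, measured 4.23, 2.22, 3.46 and 3.43 RPKM against 2.22, 1.79, 1.24 and 0.813 (difference 0.80, 95% interval 0.33 to 1.27, and 0.63 without both replicate 4 libraries). Cd79a, a signaling subunit of the B-cell receptor, measured 11.8, 7.27, 9.77 and 30.4 RPKM against 7.80, 4.94, 4.67 and 2.35 (difference 1.29, then 0.65). Pou2af1, a B-cell coactivator (difference 1.02), also had groups apart. So did Ly6d, a marker of early B-lineage cells (0.85), which was listed with the plasmacytoid dendritic cell markers and not with these 13. Cd37, a tetraspanin of mature B cells, measured 24.7, 23.4, 22.6 and 21.0 RPKM against 19.0, 16.3, 15.1 and 16.0 (difference 0.45, 95% interval 0.24 to 0.65). No marker of the list was at 0 in all 8 libraries, and the part of B cells in the class II differences was not tested. In the PBS/DEC libraries Ms4a1 measured 41.4, 22.1, 30.1 and 49.3 RPKM, above all 8 libraries compared here.

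Markers of other cell types were counted in the same way. Only 3 T-cell, 2 NK-cell and 3 stromal markers passed the filter, and Cd3e lay between 0.249 and 0.724 RPKM. At the unadjusted p 1 T-cell marker was lower and 1 stromal marker higher (0.804% and 3.58% over all tested genes). None of the 23 erythroid, 10 megakaryocyte or 12 mast cell markers passed the unadjusted p. Of 15 red pulp macrophage markers 1 did, lower (0.804% over all tested genes). Fcna, that marker, is a ficolin of splenic macrophages, and measured 3.99, 2.51, 3.04 and 1.78 RPKM against 3.04, 4.10, 6.50 and 10.3. Without both replicate 4 libraries 1 red pulp macrophage marker was higher and 0 were lower (4.19% and 1.02% over all tested genes). The median of that list went from -0.14 to 0.11. Among 7 plasmacytoid dendritic cell markers 3 were higher, as were 2 of 6 plasma cell markers and none of 5 conventional dendritic cell markers, against 3.58% over all tested genes. These lists are not separate: of the plasmacytoid markers, Spib was also listed for B cells and Ly6c2 for monocytes and macrophages. Malat1, a nuclear RNA often read as a sign of RNA quality, measured 102, 121, 103 and 57.1 RPKM in CpG-STAT3dODN/SCR and 159, 133, 133 and 140 in CpG-scrODN/PBS, without overlap. Its part in the other differences was not tested.

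**Figure D4:**
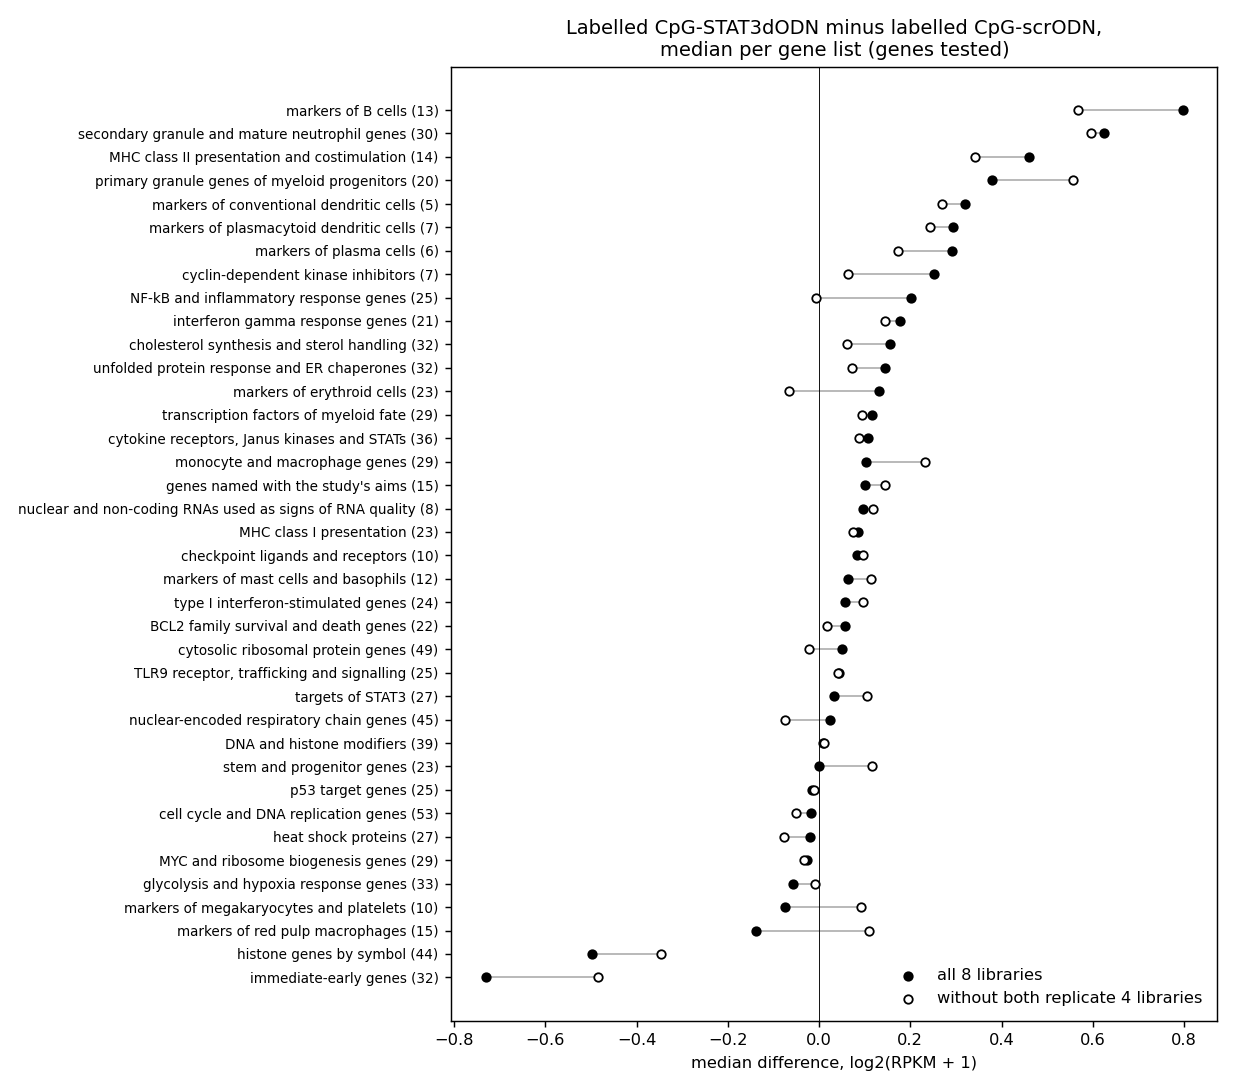
Median difference in log2(RPKM + 1), CpG-STAT3dODN/SCR minus CpG-scrODN/PBS, for each gene list with 5 or more tested genes; filled points use all 8 libraries and open points leave out both replicate 4 libraries. Immediate-early genes (-0.73 and -0.49) and histone genes (-0.50 and -0.35) lie lowest, and B-cell markers (0.80 and 0.57) and mature neutrophil genes (0.63 and 0.60) highest.

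The intervals of housekeeping lists bounded their differences. All 45 tested genes of the respiratory chain (median 0.02) had 95% intervals within 1 log2 unit of 0, as had all 33 of glycolysis and hypoxia (-0.06), and 48 of 49 ribosomal protein genes (0.05). Of 32 tested genes of the unfolded protein response 3 were higher (3.58% over all tested genes) and 3 lower (0.804%) at the unadjusted p, with a median of 0.14. Heat shock genes, 27 tested, had a median of -0.02, with 1 lower at the unadjusted p (0.804% over all tested genes) and none higher. Without both replicate 4 libraries 3 were lower (1.02% over all tested genes). These last lists were less tightly bounded: 27 of 32 unfolded protein response intervals and 22 of 27 heat shock intervals lay within 1 log2 unit of 0.

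Some genes ranked by p with groups apart came from outside the main lists. Ifitm1, an interferon-induced membrane protein, measured 16.5, 12.8, 20.9 and 15.1 RPKM in CpG-STAT3dODN/SCR and 11.9, 8.55, 5.87 and 6.94 in CpG-scrODN/PBS (difference 0.92, 95% interval 0.44 to 1.39). Cd52, a small glycoprotein of lymphocytes and monocytes, measured 40.0, 30.6, 50.1 and 42.6 RPKM against 26.7, 30.0, 19.5 and 20.2 (difference 0.74). Mgst2, a glutathione transferase of leukotriene synthesis, measured 3.65, 4.20, 7.27 and 4.51 RPKM against 3.12, 2.15, 1.71 and 1.1 (difference 0.98). Dyrk3, a dual-specificity kinase, was lower, at 19.3, 17.6, 18.4 and 21.0 RPKM against 32.0, 25.7, 36.2 and 50.3 (difference -0.85). Gimap9, a GTPase of lymphocytes, measured 2.58, 2.41, 2.53 and 2.58 RPKM against 1.58, 1.77, 1.65 and 2.06 (difference 0.35, 95% interval 0.16 to 0.55). Zbtb9, a zinc-finger gene, measured 9.21, 10.1, 9.75 and 11.3 RPKM against 7.70, 7.87, 7.95 and 7.82 (difference 0.32). Med18, a Mediator subunit (0.38), Zfp747 (0.36), Tmem185b (0.37) and Uba6, a ubiquitin-activating enzyme (0.29), had groups apart as well. The differences of Gimap9, Zbtb9, Med18, Zfp747, Tmem185b and Uba6 were small. Ranking by p among genes with groups apart favors little scatter within a group, so that trait is not a result. None of the genes in this paragraph was called.

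**Figure D5:**
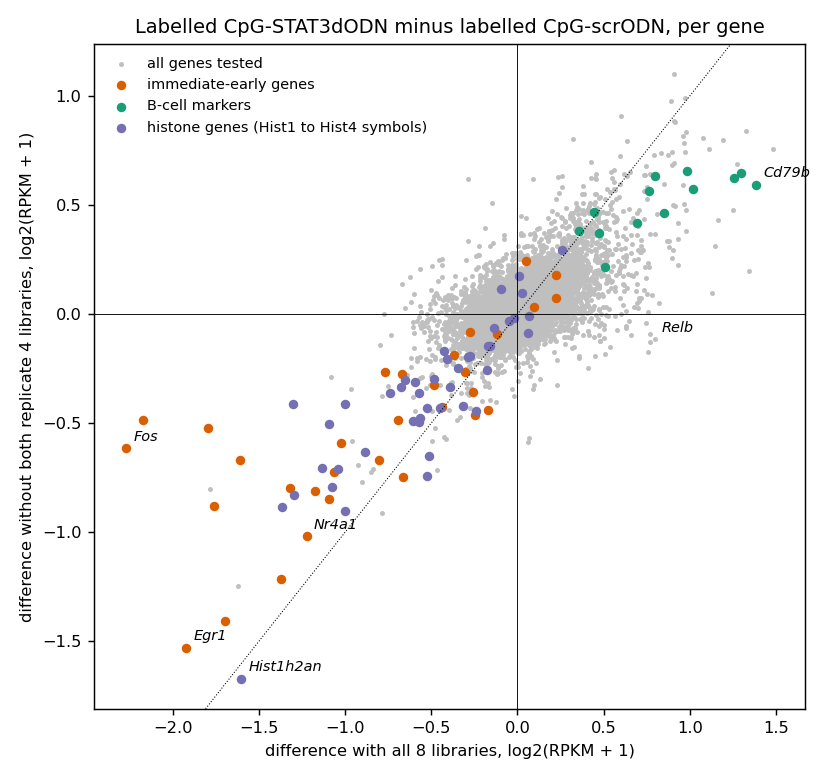
Difference in log2(RPKM + 1) of each tested gene with all 8 libraries (horizontal axis) and without both replicate 4 libraries (vertical axis); orange marks immediate-early genes, green B-cell markers and purple histone genes. Fos lies at -2.27 on the horizontal axis and at -0.61 on the vertical one, while Hist1h2an lies at -1.60 and -1.67.

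Weighting libraries by their estimated quality changed the count most. With limma's weights, which gave CpG-STAT3dODN/SCR replicate 4 a weight of 0.0696 and replicate 1 a weight of 9.11, 462 genes were called, 401 higher and 61 lower. The estimation of these weights gave a convergence warning, so the weights and the count are uncertain. With weights estimated gene by gene, chosen after the data were seen, 18 were called, 9 in each direction, all of them among the 462. They included the histone genes Hist1h1d, Hist1h1e, Hist1h2ah, Hist1h2ai and Hist1h2an, the immediate-early genes Egr1, Ier2, Junb and Nr4a1, and the lymphoid genes Cd37, Cd72, Gimap9 and Pik3ap1. Without any weights, and with all 12 libraries in 1 model or without both replicate 4 libraries, no gene was called.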

How the data were processed

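RNA-seq was done on c-Kit-enriched spleen cells. Per the submitters' processing notes, the authors used TopHat 1.3.1, Partek 6.12.0713 and mm10; strand and RNA selection were not given in the sources used here. The deposited values are RPKM per gene, made by the authors, with 1 file per library and 24310 symbols, 27 of them turned into dates. Groups follow the treatment labels. Genes at 1 RPKM or more in at least 4 of 8 libraries were tested as log2(RPKM + 1) with limma 3.58.1 in R 4.3.3 (intensity trend, 2 groups, no covariate, two-sided), after checks on simulated data. Depth came from the steps between low values; 61.4% to 66.3% of values came out within 0.05 of a whole read, too few for a count test. Named genes are the study's genes, up to 4 members of each list with the largest absolute difference, the 10 smallest p in each direction among genes with groups apart and a mean RPKM of at least 2, and the 6 strongest deviations of the distant library on each side; further list members and Hist1h2ag were chosen after their values were seen. Members and lists were chosen with earlier results of these data known. Promoters and positions are from RefSeq. Alternatives varied the pseudocount, filter, scaling, weights, model and libraries.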

Additional observations from a re-analysis of the deposited data

Results flagged for a closer look

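For the named genes in both groups, 288 sets of 4 libraries were examined for a library whose gap to its nearest neighbor took up more of the whole range than Dixon's test allows at 95%. There were 34 such sets, and in 25 of them the library was CpG-STAT3dODN/SCR replicate 4. Genes of 1 library share that library, so these are not separate events. Chance alone flags about 1 in 20, but some named genes were chosen for deviating in that library or for large differences. The count of flagged sets is therefore a description and not a test. In that library 11 genes were far below the other 3 of its group: Hist1h1e (0.908 RPKM), Hist1h2bg (3.76), Fos (5.91), Fosb (0.924), Jun (8.68), Dusp1 (5.96), Klf2 (3.90), the chaperones Hspa5 (183) and Hspa8 (356), Myd88 (33.4) and Pmaip1 (4.18). Another 14 genes were far above them: Relb (64.9 RPKM), Nfkb2 (90.02), Csf2rb (817), Csf2rb2 (642), Ifngr2 (21.6), Irf5 (34.6), Irak3 (4.16), Gbp3 (14.99), Irf4 (2.08), Spi1 (95.4), Dnmt3a (7.72), Cd86 (8.07), Sqstm1 (767) and Tmem185b (9.11).

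In CpG-STAT3dODN/SCR replicate 3, S100a9 (1650 RPKM) was far above the other libraries of its group, and Nfkbiz (3.28) was below them. In CpG-scrODN/PBS replicate 4, Hist1h1d (16.4 RPKM), Hist1h1e (11.4), Csf2rb (151), Csf2rb2 (127) and Tnf (17.1) were far above the rest and Hspa8 (928) far below. In CpG-scrODN/PBS replicate 2, Fosb (226 RPKM) was below the others.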

How the results depend on the processing

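The count of called genes was 1 (0 higher, 1 lower) with both other pseudocounts, a floor of 5 RPKM, quantile normalization, size factor scaling, no intensity trend and a term for replicate 4. It was 0 with no filter on low values (871 of 18698 genes at an unadjusted p under 0.05), with all 12 libraries in 1 model (276), with the replicate block (341) and without both replicate 4 libraries (551), and 0 to 1 with each library left out in turn. Library quality weights, whose estimation gave a convergence warning, gave 462 (401 higher, 61 lower), and the gene-by-gene estimator, added after seeing the data, gave 18 (9 higher, 9 lower). The cause was not tested. For Hist1h2an the limma adjusted p was 0.142 with no filter, 0.965 with all 12 libraries, 0.584 with the replicate block and 0.0766 without both replicate 4 libraries. It was 0.133, 0.0760, 0.110 and 0.0251 without CpG-STAT3dODN/SCR replicate 1, 2, 3 or 4, and 0.118, 0.132, 0.0127 and 0.155 without CpG-scrODN/PBS replicate 1, 2, 3 or 4. No difference of a named gene that was called changed its sign. Same-numbered libraries correlated at -0.09, -0.35, 0.09 and 0.15 in their deviations from the group means, so the numbers were not taken as pairs, and not every library correlated best with its own number; replicate 4 libraries did share some levels, such as a low Hspa1b. Genes under the filter, such as Tlr9, were left out of the main fit by the RPKM minimum, which takes no account of their read numbers. Only the fit with no filter on low values included them.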
